A study of Mus musculus with 25 samples.

Results

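The CITED and SERTAD genes encode small coregulators of transcription, and 6 of them, Cited1, Cited2, Cited4, Sertad1, Sertad2 and Sertad3, were followed across 25 mouse pituitaries. They were taken by symbol from a table of 47069 rows, with the row of the highest mean wherever a symbol had several. Each of the 6 had 1 row, so that choice decided nothing, and all 6 passed the filter on low values (a mean of at least 3 over all libraries). The group was drawn up with earlier results of these data known, in which Cited4 and Sertad1 stood among the genes past the threshold under gonadotropin-releasing hormone (GnRH). Their GnRH differences are therefore the reason they are described here and are no independent evidence.

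All animals were hpg/hpg mice, which are hypogonadal because a deletion in the GnRH gene leaves them without the hormone. The groups were 6 GnRH females, 5 placebo females, 8 GnRH males and 6 placebo males, numbered 1 to 25 as in the labels. Each number is called an animal here, but the labels do not state whether a library came from 1 pituitary or several, so p-values measure the spread between these libraries. The series text gives 5 to 7 replicates per condition, whereas the labels give 8 GnRH males. GnRH animals received 1 µg by the intraperitoneal route once a day for 10 days, placebo animals received saline, and pituitaries were taken 1 h after the last dose. Age and strain background are not given in the labels, no group had a single dose or a later time, and the animals of both arms lacked GnRH of their own. The study's title names ATF3, a stress-induced transcription factor, and its bearing on follicle-stimulating hormone (FSH).

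CITED proteins carry no DNA-binding domain. A conserved region at their C terminus binds the acetyltransferases CBP and p300, and through these they raise or lower the activity of factors that sit on DNA, among them AP-2, SMADs and hypoxia-inducible factors. SERTAD proteins share the SERTA domain, through which Sertad1 binds the cyclin-dependent kinase Cdk4, and several of them stimulate E2F transcription factors. Pituitary gonadotropes, the cells that carry the GnRH receptor and make FSH and luteinizing hormone, are a minority of the gland.

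The upstream sequences of the 2 members that moved with GnRH, and of Sertad3, the neighbour of Sertad1 that did not pass, are shown to let their promoters be compared. Each line is taken from the 250 bases before the RefSeq transcript start, read 5′ to 3′ on the strand of the gene in build GRCm38.p6, with capitals marking every match to a motif searched. GENCODE M21 starts Sertad1 and Sertad3 upstream of RefSeq, so their windows are printed up to and including its first exonic base, and the 42 and 71 bases after that were searched but are not printed. Cited4 is on the plus strand at chr4:120666313-120666562, Sertad1 on the plus strand at chr7:27486703-27486910 and Sertad3 on the plus strand at chr7:27473590-27473768.
Cited4: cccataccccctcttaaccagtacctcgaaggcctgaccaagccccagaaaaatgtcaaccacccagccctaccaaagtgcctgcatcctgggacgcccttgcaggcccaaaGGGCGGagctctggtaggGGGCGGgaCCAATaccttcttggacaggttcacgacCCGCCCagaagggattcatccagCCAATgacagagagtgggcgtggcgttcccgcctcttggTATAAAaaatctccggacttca
Sertad1: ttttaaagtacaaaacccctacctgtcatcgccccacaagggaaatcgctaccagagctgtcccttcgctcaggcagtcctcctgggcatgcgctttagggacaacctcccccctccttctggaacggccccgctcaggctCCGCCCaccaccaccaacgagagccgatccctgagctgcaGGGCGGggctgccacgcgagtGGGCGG
Sertad3: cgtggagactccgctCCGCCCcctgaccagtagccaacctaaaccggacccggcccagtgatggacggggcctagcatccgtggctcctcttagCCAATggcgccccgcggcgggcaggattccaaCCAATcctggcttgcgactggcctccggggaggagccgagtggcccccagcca

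Each motif was searched on both strands, and its share is that of the 32851 upstream windows of the RefSeq table that hold it. The TATA box, at which many transcripts are positioned, was searched as TATAAA and stood in 12.4% of windows. The box bound by nuclear factor Y was searched as CCAAT and stood in 33.8%. The GC box of Sp factors was searched as GGGCGG and stood in 32.7%. The cAMP response element (CRE) was searched as TGACGTCA and stood in 1.55%, and its core, which every full CRE also holds, was searched as TGACG and stood in 17.8%. The AP-1 site was searched as TGANTCA and stood in 6.75%, the EGR site as GCGNGGGCG in 4.70% and the hypoxia response element (HRE) as ACGTG in 16.6%. An E2F site, in the form TTTCCCGC or the form TTTGGCGC, stood in 1.30%, and the CArG box of serum response factor in 1.47%. Cited4 held a TATA box 22 to 17 bases before the start, 2 CCAAT boxes and 3 GC boxes. Sertad1 held 3 GC boxes and neither a TATA nor a CCAAT box. Neither window held letters of a CRE, its core, AP-1, CArG, EGR, HRE or E2F, which says only that they are not in these 250 bases. Sertad3 held 2 CCAAT boxes and 1 GC box. TATA boxes also stood in windows of Cited1, 13 to 8 and 115 to 110 bases before their starts. Cited2 held 2 GC boxes, the windows of Sertad2 held 3 and 5, and a window of Cited1 held 1. CCAAT boxes stood upstream of Cited1 and Sertad2 too. The window of Cited2 held an HRE 153 to 148 bases before the start, read on both strands because it is a palindrome, and 1 of the 3 windows of Cited1 held a CArG box 45 to 36 bases before it. Another window of Cited1 held an HRE, and the remaining one a CRE core, an EGR site and an E2F site. A CRE core also stood in 1 of the 2 windows of Sertad2. These members did not pass, but Cited1 and Sertad2 had more windows to search than Cited4 and Sertad1. Whether any motif bears on the GnRH differences was not tested. The GC content was 58% for Cited4 and 62.8% for Sertad1, against a median of 52.4% over all windows. It was 66.8% for Cited2, 67.2% for Sertad3, 68.4% and 72.8% for Sertad2, and 58%, 57.2% and 65.2% for Cited1. A high GC content was thus not particular to the 2 genes that rose.

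**Figure D1:**
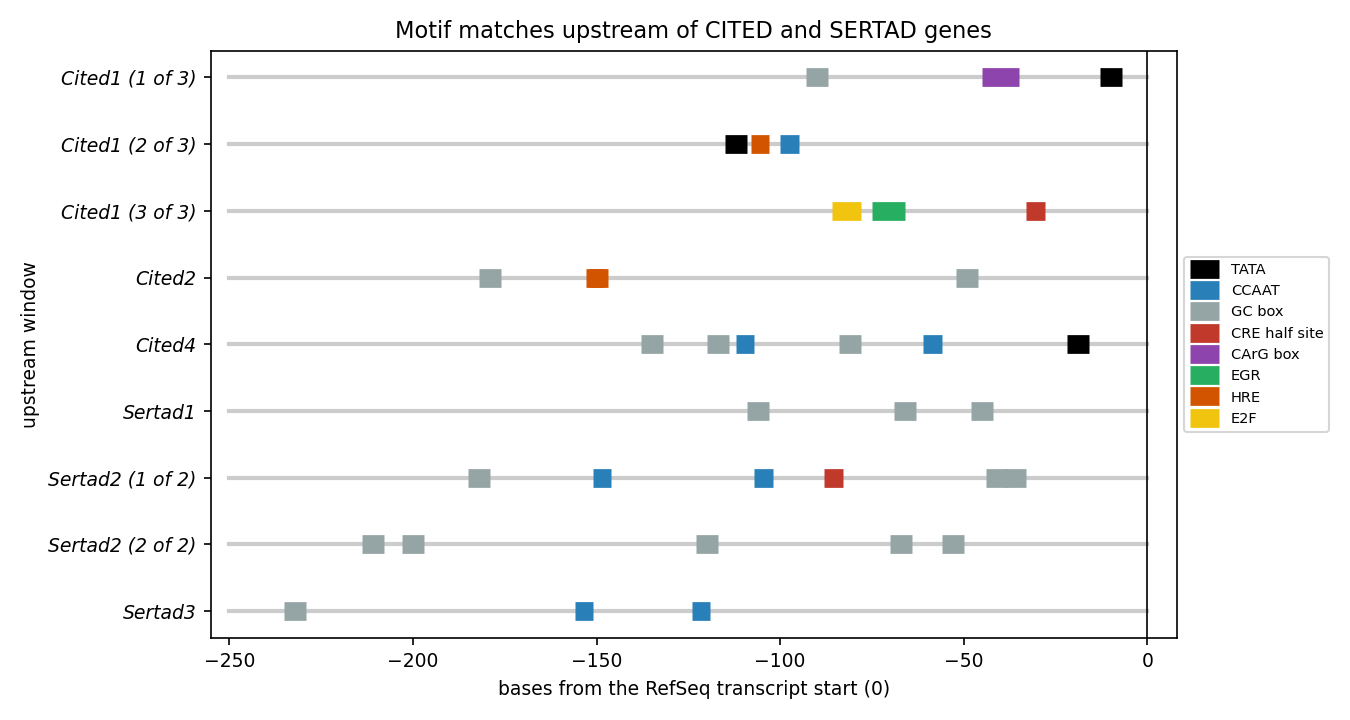
Motif matches in the 250 bases before each RefSeq transcript start of the 6 genes, with distance from the start in bases on the horizontal axis and 1 line per window (3 for Cited1, 2 for Sertad2). The lines of Cited4 and Sertad1 carry GC boxes, with CCAAT and TATA boxes for Cited4 alone of the 2. GC boxes also stand on lines of Cited1, Cited2, Sertad2 and Sertad3, and TATA boxes on lines of Cited1.

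In mm10 the members lay on 5 chromosomes, and only Sertad1 and Sertad3 were neighbours among protein-coding genes. GENCODE M21 places Cited4 at chr4:120666572-120667820 as a single exon of 1249 bases, and Sertad1 at chr7:27486910-27490316 on 3 merged exons with 1344 exonic bases. Sertad3 lies at chr7:27473768-27477364, with 9545 bases between its end and the start of Sertad1. No exon of the 6 genes overlapped an exon of another gene in GENCODE M21, so no antisense gene of that annotation shares exonic bases with them. The annotation used for counting is not given, and antisense transcripts outside GENCODE M21 were not checked.

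The libraries were alike as a whole, with correlations between any 2 of them from 0.992 to 0.998 over the genes tested. GnRH males 18 and 21 stood apart in a list of CREB and cAMP-responsive genes, with list means of 10.53 and 10.62 on the rlog scale, against 9.59 to 10.42 in the other 23 animals. Results in males are therefore given with and without both of them, which was decided on seeing these values. Animals 18 and 21 also had the highest Atf3 of the GnRH males, 10.71 and 10.55. Fshb, the beta subunit of FSH, averaged 11.84 ± 0.56 (SD, n = 6) in GnRH females and 9.77 ± 0.53 (SD, n = 5) in placebo females. In males it averaged 12.14 ± 0.56 (SD, n = 8) with GnRH and 9.37 ± 0.33 (SD, n = 6) with placebo, so that the treatment labels and this readout went together.

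GnRH against placebo was first compared in females, where 2 of the 6 genes, Cited4 and Sertad1, rose and 0 fell. Of all 19141 genes tested, 0.0993% rose in that comparison, and because the group was chosen with it in view nothing is read from the count. The median difference of the 6 genes was 0.09 on the log2 scale, against 0.00025 over all genes. Both genes had 6 of 6 treated females above every placebo female, which held for 0.528% of the genes tested. The other 4 members had differences between -0.14 and 0.16 in log2 units and did not pass.

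Cited4, which in other cells coactivates AP-2 through CBP and p300, had rlog values of 7.95, 8.15, 8.10, 7.90, 7.54 and 8.10 in GnRH females 6 to 11, against 7.18, 7.33, 6.98, 7.31 and 7.12 in placebo females 1 to 5. Animal 10 was the lowest treated female and still lay above all placebo females. The log2 difference was 0.77 (SE 0.12), a 1.71-fold higher level on the rlog scale (adjusted p = 0.00204, limma). Cited4 stood at rank 3 of all genes by p in this comparison. Its call held whichever of the 11 females was omitted, with differences from 0.72 to 0.86.

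Sertad1, the binding partner of Cdk4, had 8.60, 8.40, 8.39, 8.40, 8.00 and 8.21 in GnRH females 6 to 11, against 7.72, 7.78, 7.47, 7.65 and 7.63 in placebo females 1 to 5. The groups were separate, with animal 10 again the lowest of the treated ones. The log2 difference was 0.69 (SE 0.13), or 1.61-fold (adjusted p = 0.0175, limma), at rank 9 by p. The call was lost with all 33304 varying rows in the test (adjusted p = 0.0713) and without placebo animals 3 and 5 or GnRH animal 6 (adjusted p = 0.0824, 0.0714 and 0.0795 in turn), whereas the difference stayed between 0.63 and 0.75 in the 11 fits without 1 female.

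**Figure D2:**
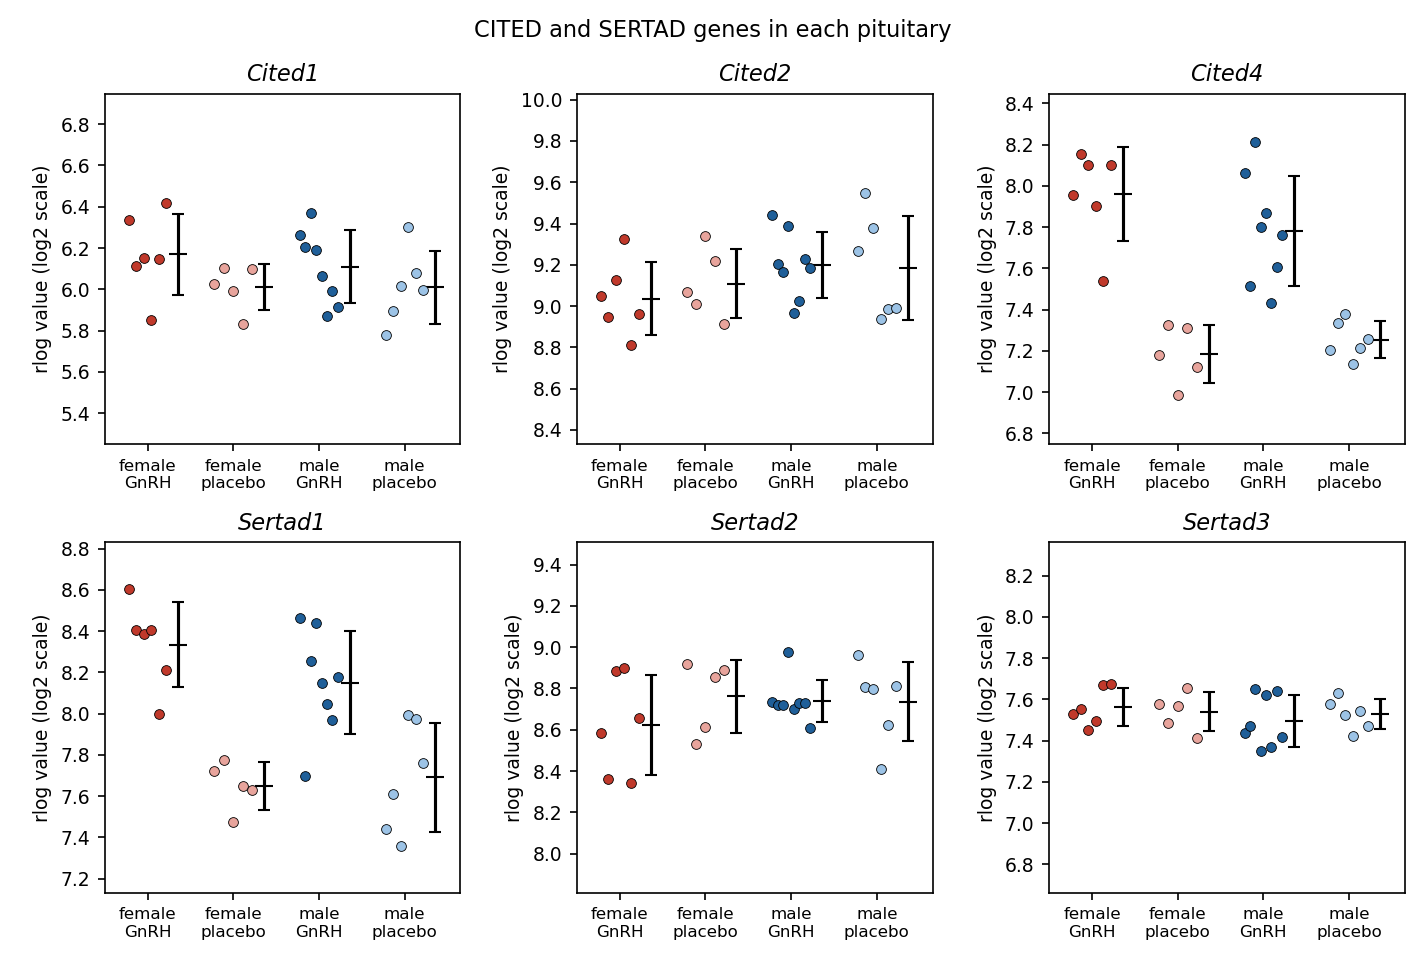
Rlog values (log2 scale, vertical axis) of the 6 genes in each pituitary, with 1 point per animal, groups along the horizontal axis and bars for mean ± SD, and with the same height of axis in every panel. Treated animals lie above placebo animals for Cited4 in both sexes and for Sertad1 in females, where the treated females run from 8.00 to 8.60 and the placebo females from 7.47 to 7.78, while the groups overlap for the other 4 genes.

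The same comparison in males asked whether these genes differ after GnRH in the other sex. Cited4 rose, and 1 of 6 members passed, against 0.449% of all genes tested that rose in males. Its values were 8.06, 7.52, 8.21, 7.80, 7.87, 7.43, 7.60 and 7.76 in GnRH males, lowest in animal 23, median 7.78 and highest in animal 20, against 7.14 to 7.38 (median 7.24) in the 6 placebo males. All 8 treated males were above every placebo male, as for 0.345% of the genes tested, and such a separation in both sexes was seen for 0.0731% of them. Calls in both sexes were made for 0.0784% of genes, Cited4 among them. The log2 difference was 0.53 (SE 0.10), or 1.44-fold (adjusted p = 0.0108, limma), and the spread was wider with GnRH (SD 0.27, n = 8) than with placebo (SD 0.09, n = 6). Without animals 18 and 21 the difference was 0.48 and missed the threshold (adjusted p = 0.0606), whereas each of the 14 fits without 1 male kept the call.

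Sertad1 in males had a lowest value of 7.70, a median of 8.16 and a highest value of 8.46 in the 8 GnRH animals, against 7.36, 7.69 and 7.99 in the 6 placebo animals. The groups overlapped. GnRH animals 19 (7.70) and 24 (7.97) lay within the range of the placebo males, whose animals 15 and 16 reached 7.99 and 7.97. The log2 difference was 0.46 (SE 0.11), or 1.37-fold, and missed the threshold (adjusted p = 0.0588, limma). It passed without animal 15, 16 or 19 (adjusted p = 0.0299, 0.0417 and 0.0100 in turn), without female 10 (adjusted p = 0.0392), who enters only the shared variance, and with library quality weights (0.55, adjusted p = 0.00450), and came to 0.36 (adjusted p = 0.317) without animals 18 and 21.

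Averaged over the sexes, the GnRH difference rests on 14 treated and 11 placebo animals. Cited4 and Sertad1 rose (2 of 6 members), where 1.42% of all genes tested rose and 0.287% fell. Cited4 had a log2 difference of 0.65 (SE 0.08, adjusted p = 1.24e-05, limma), at rank 7 by p, and Sertad1 one of 0.57 (SE 0.08, adjusted p = 0.000178, limma), at rank 25. Both calls held in all 25 fits without 1 animal and without animals 18 and 21, where the differences were 0.63 and 0.52 (adjusted p = 4.43e-05 and 0.000409). For Cited4 every one of the 14 treated animals (7.43 or higher) lay above every one of the 11 placebo animals (7.38 or lower). The share of all genes tested with such a separation across the sexes was not computed.

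**Figure D3:**
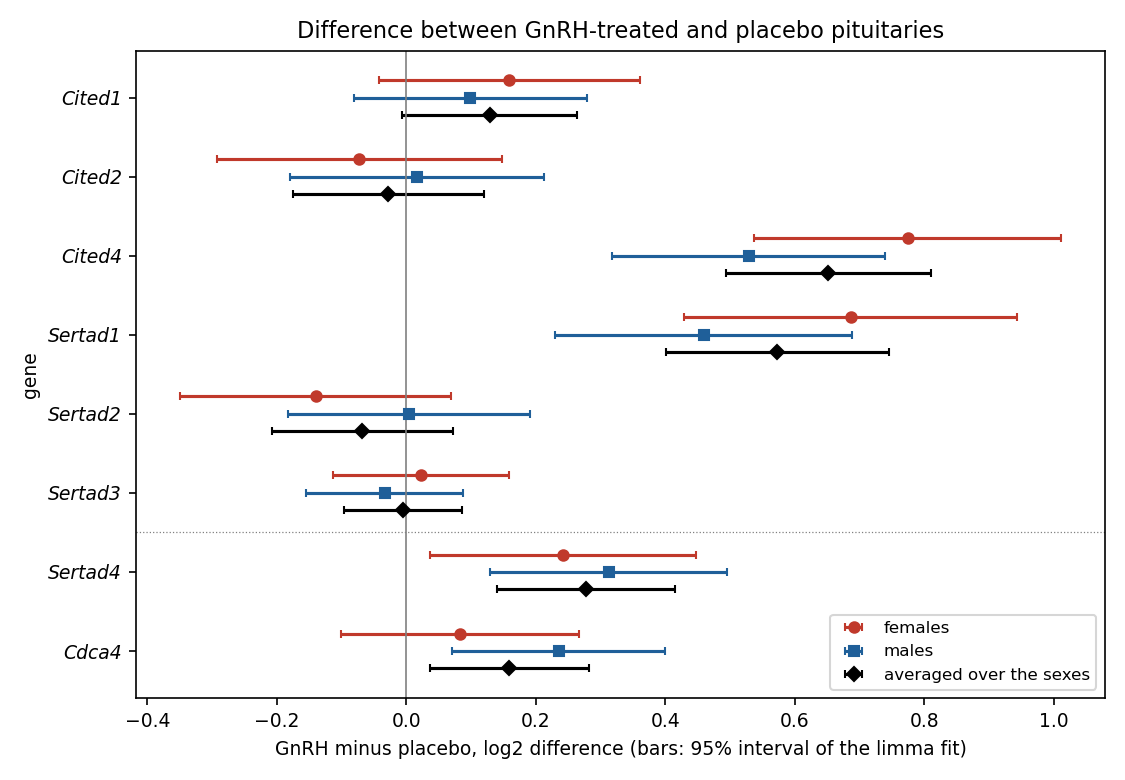
Log2 differences, GnRH minus placebo (horizontal axis), for the 6 genes and, under the dotted line, 2 further genes with a SERTA domain, in females, in males and averaged over the sexes. Bars are 95% intervals of the limma fit; those of Cited4 and Sertad1 lie above 0 in all 3 comparisons, and those of Cited1, Cited2, Sertad2 and Sertad3 include 0 in all 3.

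Cited1, a coactivator of SMADs and of the oestrogen receptor in other cells, had 6.17 ± 0.20 (SD, n = 6) in GnRH females and 6.01 ± 0.11 (SD, n = 5) in placebo females. In males it had 6.11 ± 0.18 (SD, n = 8) with GnRH and 6.01 ± 0.18 (SD, n = 6) with placebo. Its averaged difference was 0.13, with a 95% interval from -0.01 to 0.26 (adjusted p = 0.443, limma). Above every placebo female were 5 of the 6 treated ones, animal 9 being the exception at 5.85. It had the lowest mean of the 6 genes, 6.08 on the rlog scale, the range in which shrinkage weighs most.

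Cited2, which competes with hypoxia-inducible factors for CBP and p300, had 9.04 ± 0.18 (SD, n = 6) in GnRH females and 9.11 ± 0.17 (SD, n = 5) in placebo females, and 9.20 ± 0.16 (SD, n = 8) in GnRH males and 9.18 ± 0.25 (SD, n = 6) in placebo males. The averaged difference was -0.028, with an interval from -0.18 to 0.12 (adjusted p = 0.910, limma). The interval leaves out a change as large as that of Cited4 in either direction. GnRH males 18 (9.44) and 21 (9.39) were the highest treated males, but placebo male 13 was higher at 9.55.

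Sertad2, which limits fat breakdown in mouse adipose tissue, had 8.62 ± 0.24 (SD, n = 6) in GnRH females and 8.76 ± 0.18 (SD, n = 5) in placebo females, and 8.74 ± 0.10 (SD, n = 8) in GnRH males and 8.74 ± 0.19 (SD, n = 6) in placebo males. The averaged difference was -0.068, with an interval from -0.21 to 0.072 (adjusted p = 0.739, limma). Sertad3, a small member first found as a partner of replication protein A, had 7.56 ± 0.09 (SD, n = 6) in GnRH females and 7.54 ± 0.09 (SD, n = 5) in placebo females. In males it had 7.49 ± 0.12 (SD, n = 8) with GnRH and 7.53 ± 0.07 (SD, n = 6) with placebo. Its averaged difference was -0.0054, with the narrowest interval of the 6 genes, from -0.096 to 0.085 (adjusted p = 0.978, limma).

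The nearest protein-coding genes on either side of Sertad1, chosen by position and outside the naming rule, did not pass. Sertad3 had the averaged difference of -0.0054 given above and Prx, a myelin protein gene, 0.21 (SE 0.23, adjusted p = 0.764, limma).

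The GnRH difference in males was also set against that in females within the model. By limma 0 of 6 members passed (0 at an unadjusted p under 0.05), as did 0% of all genes tested. The difference in males minus that in females was -0.25 for Cited4, with a 95% interval from -0.56 to 0.07, and -0.23 for Sertad1, with an interval from -0.57 to 0.12 (adjusted p = 0.999 for both). A smaller response in males is thus not shown, nor is an equal one. Between males and females, 0 of 6 members passed with GnRH (smallest adjusted p = 0.921, 0.0522% of all genes past) and 0 of 6 with placebo (smallest adjusted p = 0.999, 0.0470% of all genes past), by limma and with 0 at an unadjusted p under 0.05 in both. Under GnRH Cited4 averaged 7.78 ± 0.27 (SD, n = 8) in males and 7.96 ± 0.23 (SD, n = 6) in females. Without GnRH it averaged 7.25 ± 0.09 (SD, n = 6) in males and 7.18 ± 0.14 (SD, n = 5) in females.

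The order of the 4 group means was the same for Cited4 and Sertad1, with GnRH females highest, then GnRH males, placebo males and placebo females. For Sertad1 these means were 8.33 ± 0.21 (SD, n = 6), 8.15 ± 0.25 (SD, n = 8), 7.69 ± 0.27 (SD, n = 6) and 7.65 ± 0.11 (SD, n = 5). Neighbours within a treatment overlapped and did not differ beyond their spread. Over the 25 libraries Pearson's r between the 2 genes was 0.835, which carries the treatment difference, and 0.455 with group means subtracted, both as a description. Among GnRH males, animals 20 (8.21) and 18 (8.06) had the highest Cited4, and the fourth highest was animal 21 (7.80). Animals 18 (8.46) and 21 (8.44) had the highest Sertad1, followed by animal 20 (8.26). Among GnRH females animal 10 was lowest for 4 of the 6 members, and also for Fshb and Atf3. That animal was the lowest of its group for 21.8% of all genes tested.

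**Figure D4:**
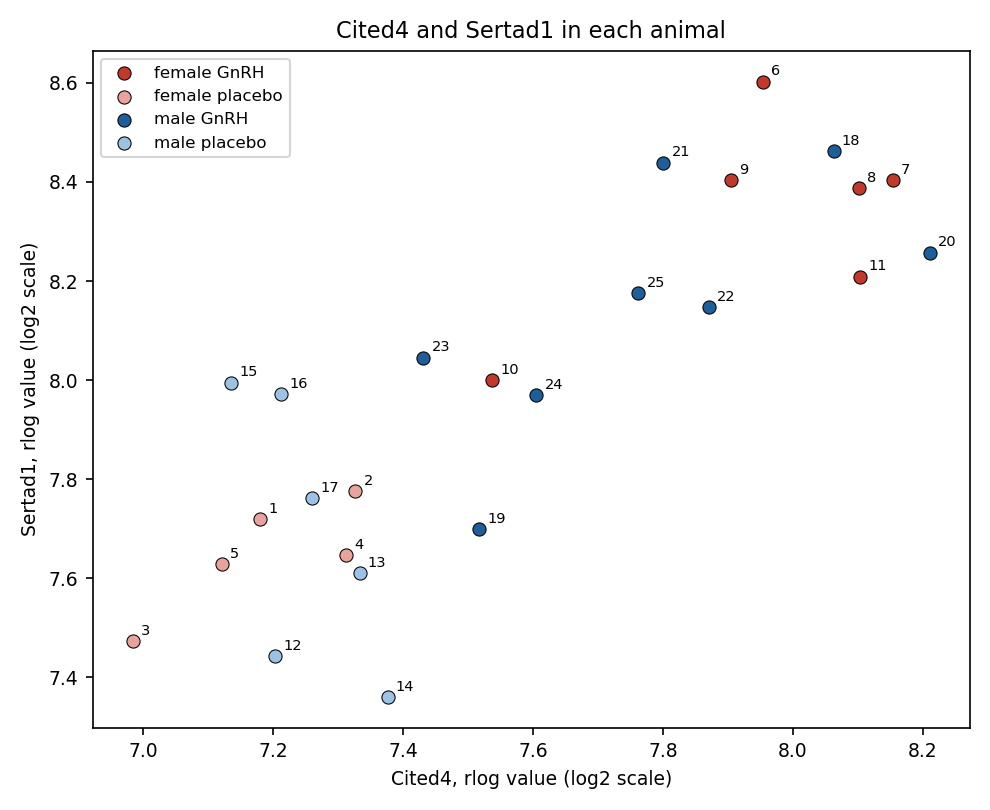
Sertad1 (vertical axis) against Cited4 (horizontal axis), both as rlog values on the log2 scale, with 1 point per animal labelled by its number and coloured by group. Treated animals lie to the right of all placebo animals, whereas along the Sertad1 axis animals 19 and 24 lie within the range of the placebo males.

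Of 2 further genes with a SERTA domain, Sertad4 rose in the averaged comparison and Cdca4 did not pass. Sertad4 had 8.50 ± 0.21 (SD, n = 6) in GnRH females and 8.26 ± 0.18 (SD, n = 5) in placebo females. In males it had 8.46 ± 0.12 (SD, n = 8) with GnRH and 8.15 ± 0.20 (SD, n = 6) with placebo, with 7 of 8 treated males above every placebo male. The averaged log2 difference was 0.28 (SE 0.07, adjusted p = 0.0258, limma), but adjusted p = 0.455 in females and 0.147 in males, and the averaged call was lost with all varying rows in the test (adjusted p = 0.0615) and without animal 3, 4, 6 or 14 (adjusted p = 0.0730, 0.0586, 0.0503 and 0.0526 in turn). A predicted gene on the opposite strand overlaps 138 of its 3850 exonic bases, so reads in that stretch may be mixed. Cdca4 had an averaged difference of 0.16 (SE 0.06, adjusted p = 0.237, limma). Above every placebo animal of the same sex were 1 of 6 treated females and 7 of 8 treated males.

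The partners and targets of these proteins were read from 8 lists with 113 genes, of which 108 were tested. In the averaged comparison 9 rose and 1 fell, where 1.42% of all genes tested rose and 0.287% fell. In females 1 rose (Vegfa), against 0.0993% of all genes, and in males 3 rose (Vegfa, Nr4a3 and Nab2), against 0.449%. The lists were chosen with these results known, so nothing is read from the counts. Of these single-sex calls, Vegfa in females was lost without animal 5, 6 or 11 (adjusted p = 0.0714, 0.0694 and 0.0548 in turn), and without animals 18 and 21 Nr4a3 and Nab2 in males were lost (adjusted p = 0.0522 and 0.0631). Nr4a3 belongs to the CREB and cAMP list by which animals 18 and 21 were singled out, so its loss is no independent check. In the averaged comparison, 2295 of all 19141 genes tested had an unadjusted p under 0.05 by limma. Of 7 genes for CBP, p300 and other acetyltransferases, 0 passed by limma (0 at an unadjusted p under 0.05), with a median log2 difference of -0.04 against -0.00088 over all genes. Ncoa1 and Ncoa2, coactivators of nuclear receptors, had the smallest p of these, with differences of -0.12 and -0.11 (adjusted p = 0.523 and 0.580). Of 13 tested DNA-binding partners of CITED proteins, 1 fell and 12 did not pass (median -0.07). The one that fell was Nr5a1, a factor of gonadotropes, with -0.38 (SE 0.09, adjusted p = 0.0222). It averaged 9.63 ± 0.22 (SD, n = 6) in GnRH females and 9.99 ± 0.31 (SD, n = 5) in placebo females, and 9.60 ± 0.25 (SD, n = 8) in GnRH males and 10.00 ± 0.21 (SD, n = 6) in placebo males. Its call was lost with all varying rows in the test (adjusted p = 0.0645) and without placebo animal 4 (adjusted p = 0.0571).

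Of 17 tested genes of oxygen sensing and the hypoxia response, 2 rose and 15 did not pass (median 0.01). These were Vegfa, an endothelial growth factor, with 0.50 (SE 0.06, adjusted p = 2.05e-05), and Slc2a1, a glucose transporter, with 0.65 (SE 0.13, adjusted p = 0.00511). Slc2a1 averaged 10.49 ± 0.41 (SD, n = 6) in GnRH females and 9.86 ± 0.05 (SD, n = 5) in placebo females, and 10.59 ± 0.51 (SD, n = 8) in GnRH males and 9.93 ± 0.10 (SD, n = 6) in placebo males. The treated animals thus spread more widely than the placebo animals. The remaining members of that list include the prolyl hydroxylases and glycolytic enzymes.

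On the side of the SERTAD proteins, 0 of 21 tested genes for E2F factors, pocket proteins, D cyclins, Cdk4, Cdk6 and their inhibitors passed by limma (0 at an unadjusted p under 0.05, median -0.04). Ccnd3, a D cyclin, had 0.09 (adjusted p = 0.430) and Rbl1, a pocket protein, -0.08 (adjusted p = 0.454). Of 19 S-phase genes regulated by E2F, 0 passed by limma (4 at an unadjusted p under 0.05, median 0.02). Such an unadjusted p was seen for 2295 of all 19141 genes tested, and nothing is read from the 4. Mcm2, of the replicative helicase, had -0.12 (adjusted p = 0.375).

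Among 16 CREB factors and cAMP-responsive genes 2 rose and 14 did not pass (median 0.15). Nr4a3, an orphan nuclear receptor, had 1.22 (SE 0.21, adjusted p = 0.00109) and Fosb, an AP-1 subunit, 1.28 (SE 0.28, adjusted p = 0.0125). Among 13 other coregulators 4 rose and 9 did not pass (median 0.05). Nab2, a corepressor of EGR factors, had 0.69 (SE 0.10, adjusted p = 0.000174), close in size to Cited4. It averaged 10.84 ± 0.25 (SD, n = 6) in GnRH females and 10.13 ± 0.27 (SD, n = 5) in placebo females, and 10.63 ± 0.19 (SD, n = 8) in GnRH males and 9.96 ± 0.38 (SD, n = 6) in placebo males. Its relative Nab1 had 0.25 (SE 0.06, adjusted p = 0.0267). Id1 and Id3, which bind bHLH factors and keep them from DNA, had 0.52 (SE 0.11, adjusted p = 0.00842) and 0.36 (SE 0.09, adjusted p = 0.0345). Of the 2941 exonic bases of Nab2, 1050 overlap the predicted gene Gm16229, 151 Nemp1 and 40 Stat6, all on the opposite strand. Of those of Slc2a1, 105 overlap a predicted gene on the opposite strand, so reads of these genes may be mixed. Exons of Ncoa1 and Ccnd3 overlap genes on the opposite strand as well, by 68 and 361 bases. Nab1 and Id3 lost their calls without animals 18 and 21 (adjusted p = 0.0598 and 0.0841), Nab1 also without animal 5 or 14 (adjusted p = 0.0588 and 0.0511), and Id3 in 13 of 25 fits without 1 animal.

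**Figure D5:**
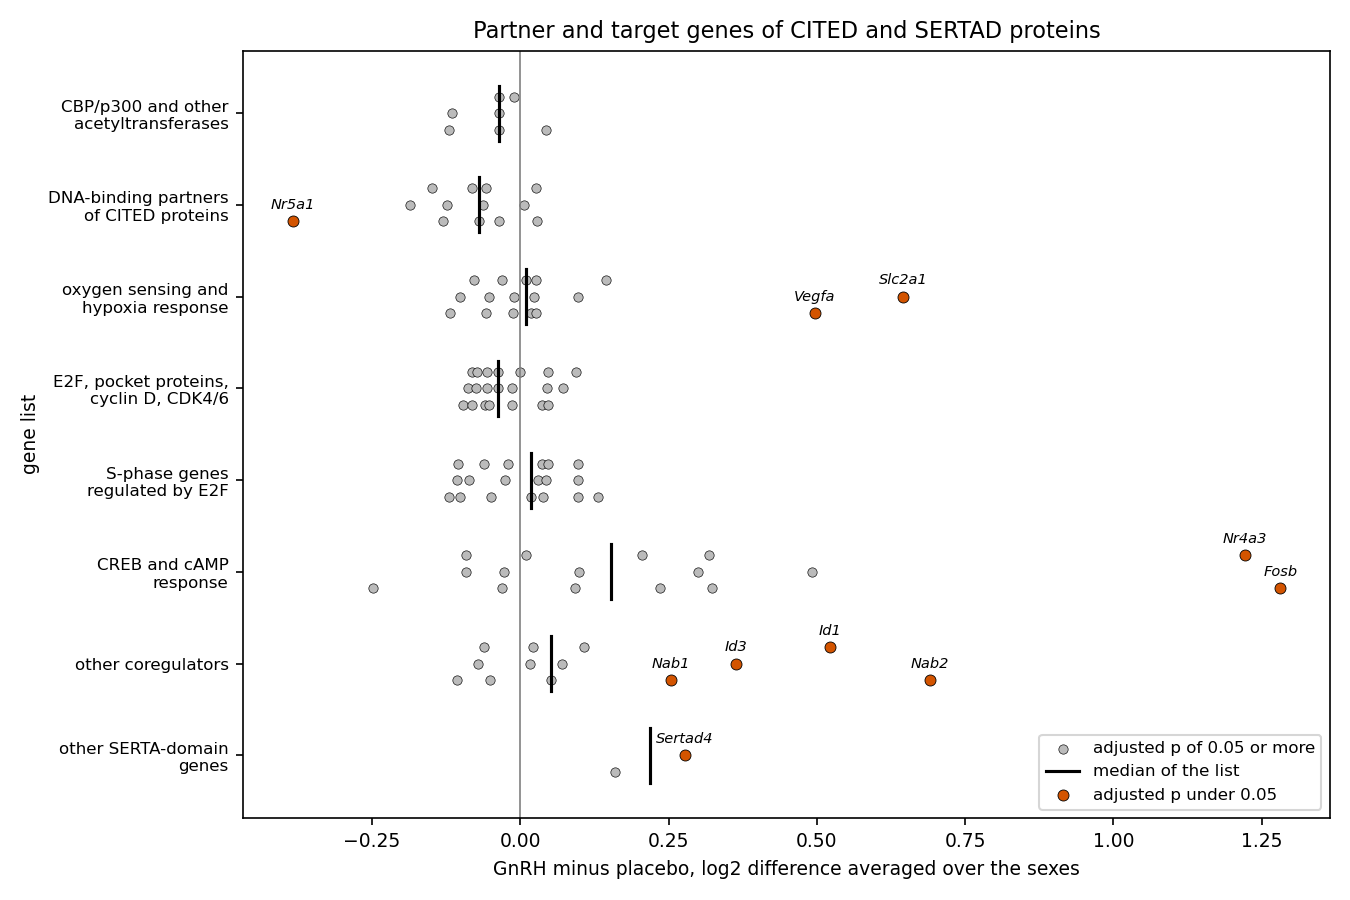
Log2 difference, GnRH minus placebo averaged over the sexes (horizontal axis), for each tested gene of the 8 lists, with names for those past the threshold (orange) and a bar for each list's median. Nr5a1 is the only named point below 0, and Nr4a3 and Fosb lie farthest to the right, at 1.22 and 1.28.

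The genes whose rlog values were most like those of a member over the 25 libraries are given by Pearson's r as a description. For Cited4 they were Dot1l, a histone methyltransferase, at 0.904, Tnfrsf12a, a receptor of the TNF family, at 0.902 and Rheb, a small GTPase that activates mTOR, at 0.887. For Sertad1 they were Nab2 at 0.924, Tnfrsf12a at 0.908 and Tbkbp1, an adaptor of the kinase TBK, at 0.906. These values carry the treatment difference. With group means subtracted, Cited4 was closest to Zswim4 at 0.746, Osgin2 at 0.745 and Hmga1b, whose reads may be shared with its near copy Hmga1, at 0.729. Sertad1 was then closest to Noct (nocturnin), at 0.848, Nab2 at 0.824 and Klf16, a zinc-finger factor, at 0.812.

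Markers of 12 pituitary cell types were read beside these results, and 0 of the 44 markers were at 0 in every library. Growth hormone (Gh) had a mean of 21.45, prolactin (Prl) 17.40, Pomc 18.50 and Tshb 12.35 on the rlog scale, as a pituitary label asks. In the averaged comparison, 10 of the 12 lists had 0 markers past the threshold by limma. Of 5 gonadotrope markers, Fshb, Lhb and Gnrhr rose and Nr5a1 fell. The list mean ran from 11.27 to 11.60 in GnRH females and from 10.49 to 10.93 in placebo females, and from 11.18 to 11.70 in GnRH males and from 10.45 to 10.86 in placebo males. Of 5 endothelial markers, Emcn and Plvap rose, and the list mean ran from 9.90 to 10.18 in GnRH females and from 9.79 to 9.98 in placebo females, and from 9.86 to 10.24 in GnRH males and from 9.86 to 9.94 in placebo males. The part of either cell type in the differences of Cited4 and Sertad1 was not tested, and in whole pituitaries more cells of a type and more RNA per cell cannot be told apart.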

How the data were processed

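RNA of 25 pituitaries was sequenced after selection of polyadenylated transcripts. The values analysed are regularized-log (rlog) values, which are log2 values that the authors deposited after scaling between libraries and shrinkage towards each gene's mean, per the name of their table. Shrinkage understates differences of low genes. Per the submitters' processing notes, the tools were featureCounts, STAR and bcl2fastq and the build mm10. Their versions, the annotation and the strand setting are not given in the sources used. The depth of each library is unknown, so no counting interval was computed.

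The 6 members and 8 lists of partner and target genes were chosen with earlier results of these data known. Of 47069 rows, 19141 had a mean rlog of 3 or more and were tested. Differences were fitted in R 4.3.3 with limma 3.58.1, with 1 mean for each of 4 groups, 21 residual degrees of freedom and a variance trend on the mean. All p-values are two-sided, with Benjamini-Hochberg adjustment over the 19141 genes and a threshold of 0.05. The code was tested on simulated data. Alternatives changed the filter, scaling, variance model and samples. Besides the members, genes named are those of the lists past the threshold (or the 2 of a list with the smallest p), Sertad4, Cdca4, Fshb, Atf3 and the 3 genes most correlated with each member, leaving out predicted genes; exceptions are stated, and 2 genes are not reported here. Windows of 250 bases upstream of each transcript start were read from RefSeq (GRCm38.p6), gene positions from GENCODE M21.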

Additional observations from a re-analysis of the deposited data

Results flagged for a closer look

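Values of the 6 members, Sertad4 and Cdca4 were searched for single animals far from the rest of their group, in 32 sets of 5 to 8 animals, and 2 were found; chance alone marks about 5% of such sets. For Sertad2, GnRH male 21 had 8.98, whereas the next highest GnRH male had 8.73. That animal is also 1 of the 2 with the highest values of CREB and cAMP-responsive genes. For Sertad4, GnRH female 10 had 8.11, whereas the next lowest GnRH female had 8.50, so the animal lies among the placebo females.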

How the results depend on the processing

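No paired analysis was possible because the labels give each animal a number of its own from 1 to 25 and nothing links animals across groups. With all 33304 varying rows in the test, 1 member passed in females and 6 listed genes passed in the averaged comparison. Vegfa in females and Nr4a3 and Nab2 in males then missed the threshold (adjusted p = 0.0521, 0.0510 and 0.0524), as did Nab1 and Id3 averaged over the sexes (adjusted p = 0.0644 and 0.0941). Without placebo male 14, Nab2 in males missed it too (adjusted p = 0.0549). With library quality weights 2 members passed in males, and without GnRH males 18 and 21 together 0 did. Without these 2 males the calls among all 19141 genes in males, in either direction, came to 38, against 95 with them, so the loss was not particular to the members. Leaving out 1 animal at a time gave 1 to 2 members in females, 1 to 2 in males and 2 to 2 averaged over the sexes, 0 to 0 in the difference between the sexes and in both sex comparisons, and 7 to 10 listed genes. Signs turned with library quality weights for Cited2 (-0.043) and Sertad2 (-0.050) under GnRH in males and for Sertad1 (-0.019) and Sertad3 (0.00087) between placebo males and females, and without animals 18 and 21 for Cited2 (-0.056) and Sertad2 (-0.035) in males and Sertad3 (0.011) averaged. Leaving out 1 animal at a time also turned signs: under GnRH in females for Sertad3 (-0.0094 to 0.052) and Cdca4 (-0.010 to 0.12), in males for Cited2 (-0.034 to 0.089) and Sertad2 (-0.061 to 0.049), averaged for Cited2 (-0.057 to 0.0081) and Sertad3 (-0.022 to 0.0093), and between placebo males and females for Cited1 (-0.059 to 0.046), Sertad1 (-0.019 to 0.11), Sertad2 (-0.083 to 0.039) and Sertad3 (-0.043 to 0.018). None of the differences whose sign turned passed the threshold in either case. The cause of these changes in calls and signs was not tested. Quantile normalization, subtraction of library medians, a fit with no variance trend and robust variance moderation changed no sign and no call of the members or named genes. Nab2 passed in females with a mean of at least 6 (adjusted p = 0.0481) and with library quality weights (adjusted p = 0.0286), which also brought Slc2a1 and Nab1 past the threshold in males (adjusted p = 0.0296 and 0.0103). Nab1 also passed in males with only the 2 groups compared (adjusted p = 0.0248). Library depth is unknown, so whether low members such as Cited1 were limited by reads cannot be stated.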

Other observations

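The 4 members that did not pass still varied between animals, and other genes varied with them. By Pearson's r over the 25 libraries with group means subtracted, given as a description, Sertad2 was closest to the deubiquitinase Usp22 at 0.913, Tmem2 at 0.905 and the unconventional myosin Myo6 at 0.898. Cited2 was closest to Zfp36l2, an RNA-binding protein that promotes mRNA decay, at 0.856, Tspan18 at 0.831 and Pacs1 at 0.791. Cited1 was closest to Npm1 at 0.781, Chil6 at 0.743 and Caprin2 at 0.730, and Sertad3 to Get4 at 0.758, Flvcr2 at 0.670 and Wrap73 at 0.661. All libraries share the authors' scaling and shrinkage.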
